A study of Mus musculus with 4 samples.

Results

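Cathepsin S (Ctss) and 8 genes of antigen presentation by MHC class II were examined in mouse CD4+CD8+ double-positive (DP) thymocytes of mice bred for deletion of Usp8, which encodes a deubiquitinase. The 9 genes, of 28095 gene names on the array, were taken by name. They are the class II chains H2-Aa, H2-Ab1 and H2-Eb1, the invariant chain Cd74, the peptide exchange genes H2-DMa, H2-DMb1 and H2-Oa, the transactivator Ciita, and Ctss. The set was drawn up with earlier results of the same genotype comparison in view, among them the low Ctss signal in the mutant. Genotype differences of the members are therefore descriptions and carry no test.

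The mutant mice (USP8ff_CD4Cre) had loxP-flanked Usp8 alleles and the Cre recombinase named CD4Cre, a transgene driven by Cd4 regulatory sequence and active in the T cell lineage, and the control mice (USP8ff) had the same alleles without Cre. All were untreated, sex-matched littermates aged 6 to 12 weeks. Sorted DP cells from 2 mice were pooled for each array, which gave 2 arrays a genotype and 8 mice in all. No group carried Cre without the flanked alleles, so effects of Cre and of the deletion cannot be told apart. The labels used here name no strain, and class II chains differ between strains.

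An MHC class II molecule is an alpha chain paired with a beta chain (H2-Aa with H2-Ab1; H2-Eb1 is a beta chain of the E molecule). In the endoplasmic reticulum the pair is filled by the invariant chain, which also routes it to endosomes. There lysosomal proteases trim the invariant chain to a short remnant, a step that cathepsin S carries out in B cells and dendritic cells and cathepsin L in the cortical epithelium of the thymus. H2-DM then swaps the remnant for antigenic peptide, and H2-O restrains H2-DM. Ciita switches on the class II genes, the invariant chain and H2-DM. DP thymocytes are selected on class II molecules displayed by the thymic epithelium, and mouse T cells are not known as class II presenting cells.

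Between 45.0% and 48.9% of 41174 probes were well above background on each of the 4 arrays, and no spot was saturated. Levels are given as log2 signal relative to the 75th percentile of the array. Usp8 had log2 levels of -1.03 and -1.23 in USP8ff_CD4Cre, against -0.23 and -0.40 in USP8ff, and thus 56.9% of the control signal (limma adjusted p = 0.60); protein was not measured. In limma's fit over 13062 genes 0 passed a Benjamini-Hochberg adjusted p of 0.05 (0% of those tested), and 970 (7.43%) had an unadjusted p under that value. Cd4, Cd8a and the other 8 DP markers listed were all well above background on all 4 arrays. RNA of pooled cells cannot show both coreceptors in the same cell, so the DP identity rests on the sort.

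Of the 9 members, 7 passed the filter on dim probes, and those 7 were well above background on all 4 arrays, not only where they were high. H2-Aa and Ciita did not pass. Both USP8ff_CD4Cre arrays lay below both USP8ff arrays for 4 of the 7 measured members (Ctss, Cd74, H2-Eb1 and H2-DMb1), where 16.3% of all genes showed that order. For H2-Ab1, H2-DMa and H2-Oa the genotypes overlapped. Apart from Ctss, the members that lay lower had dimmer signals on every array than those that overlapped, with each gene read by its brightest probe. Without the filter on dim probes the median log2 difference over 28472 genes was -0.13, against 0.02 with the filter. Genes that the filter removes thus tended lower in USP8ff_CD4Cre, whereas all 7 measured members passed it. A dimmer H2-Ab1 probe that also passed, at log2 levels of -3.02 to -2.79, had a difference of 0.0025. The part of signal level in this split was not tested. Ctss had 25.7% of the control signal, while the other 6 had 66.4% to 101.3% of it. The log2 difference was below 0 for 6 of the 7, beside 45.2% of all genes. Ctss was known to be low when the set was drawn up. Without it, 3 of the other 6 had both mutant arrays below both controls, and 5 had a log2 difference below 0. Of those 5, H2-Ab1 (-0.03) and H2-Oa (-0.07) had differences smaller in size than their SE (0.12 and 0.21).

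**Figure D1:**
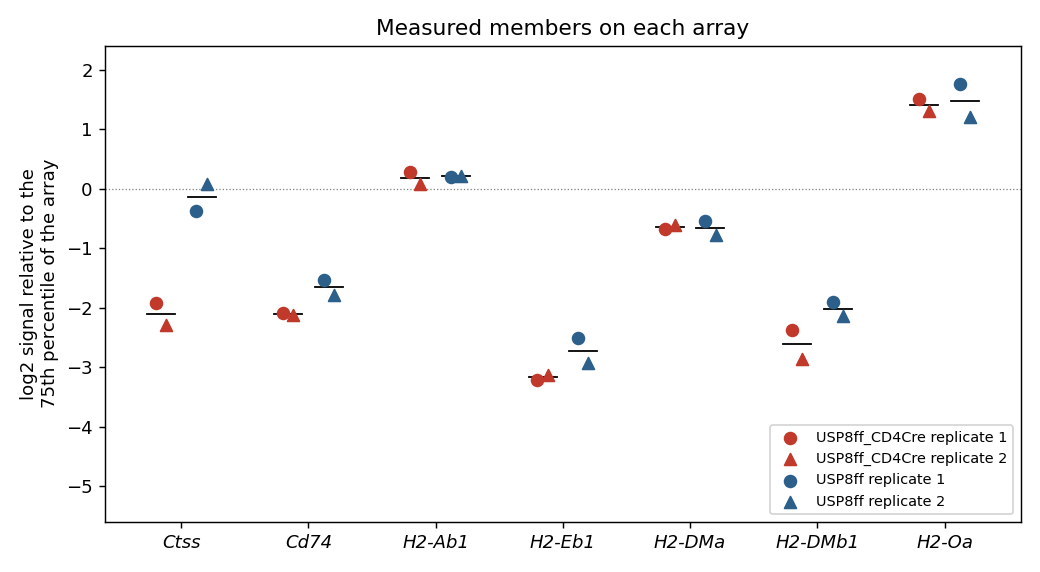
Log2 signal of the 7 measured members on each array, relative to the 75th percentile of that array; horizontal bars are means of 2 arrays, and levels of different genes are not comparable because each has its own probe. Ctss shows the widest separation, with USP8ff_CD4Cre at -1.92 and -2.29 and USP8ff at -0.37 and 0.08.

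Ctss encodes a cysteine protease of endosomes and lysosomes. Its single probe (mm9, chromosome 3, 95360162 to 95360221) gave intensities of 140.5 and 114.8 in USP8ff_CD4Cre replicates 1 and 2, against 456.5 and 628.5 in USP8ff replicates 1 and 2. The log2 level averaged -2.10 ± 0.26 in USP8ff_CD4Cre and -0.14 ± 0.32 in USP8ff (SD, n = 2 each). The genotypes therefore differed by -1.96 ± 0.21 (SE) on the log2 scale. The distance between the nearest arrays of the genotypes, 1.55 on the log2 scale, exceeded the 0.37 and 0.45 that separated the arrays within USP8ff_CD4Cre and within USP8ff. Of all genes, 0.390% had a log2 difference below -1, and Ctss ranked 8 of 13062 from the lowest. In pooled bulk samples fewer cells of a type and less RNA per cell cannot be told apart. Ctss was the 1 member among the 78 probes in the authors' deposited table, which gives it as 3.88-fold down with p = 0.0215. That table states neither its test nor the genotype it takes as baseline. It covers the same genotype comparison of this series, so it is no independent evidence.

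The invariant chain gene Cd74 was lower too, by a smaller amount. Its log2 level was -2.09 and -2.12 in USP8ff_CD4Cre, against -1.53 and -1.79 in USP8ff. The 2 mutant arrays almost coincided and the controls lay above them. The mutant had 73.4% of the control signal, a log2 difference of -0.45 ± 0.13 (SE), and with normexp background correction it was -0.30.

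The class II chains did not share 1 pattern. H2-Eb1, the E beta chain gene, had log2 levels of -3.22 and -3.13 in USP8ff_CD4Cre, against -2.51 and -2.94 in USP8ff. The genotypes did not overlap, but the controls differed from each other (0.43) by more than the gap between genotypes (0.19). The log2 difference was -0.45 ± 0.17 (SE). It was -0.13 with normexp background correction, -0.24 without USP8ff replicate 1 and -0.67 without USP8ff replicate 2. The H2-Eb1 probe (mm9, chromosome 17, 34452050 to 34452511) is tied in the array design to a database record titled as an A beta chain. Its assignment rests on the design's gene name and position. The H2-Ab1 probes with a position lie elsewhere on chromosome 17, between 34401723 and 34406118.

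H2-Ab1, the A beta chain gene, was measured by 4 probes, 3 of them well above background on all 4 arrays. The brightest (chromosome 17, 34406059 to 34406118) had log2 levels of 0.28 and 0.07 in USP8ff_CD4Cre, against 0.20 and 0.21 in USP8ff, a difference of -0.03 ± 0.12 (SE). The mutant arrays lay on either side of the controls. A dimmer probe (34401723 to 34401782) had a log2 difference of 0.0025, and it too overlapped between genotypes.

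A further H2-Ab1 probe (34404388 to 34404447) was printed 10 times on each array, which gives the measurement error within an array. Its spots ranged from 239.3 to 277.0 and from 268.7 to 290.3 in intensity on the USP8ff_CD4Cre arrays, against 287.0 to 333.4 and 300.2 to 353.5 on the USP8ff arrays. After scaling, the spot means were -1.03 and -1.01 in USP8ff_CD4Cre, against -0.92 and -0.91 in USP8ff on the log2 scale, with SDs over spots of 0.04 to 0.07. The genotype difference at this probe, -0.11 on the log2 scale, was larger than these SDs, and the array means did not overlap between genotypes. Spots of an array share 1 RNA pool and are no replicates of a genotype.

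**Figure D2:**
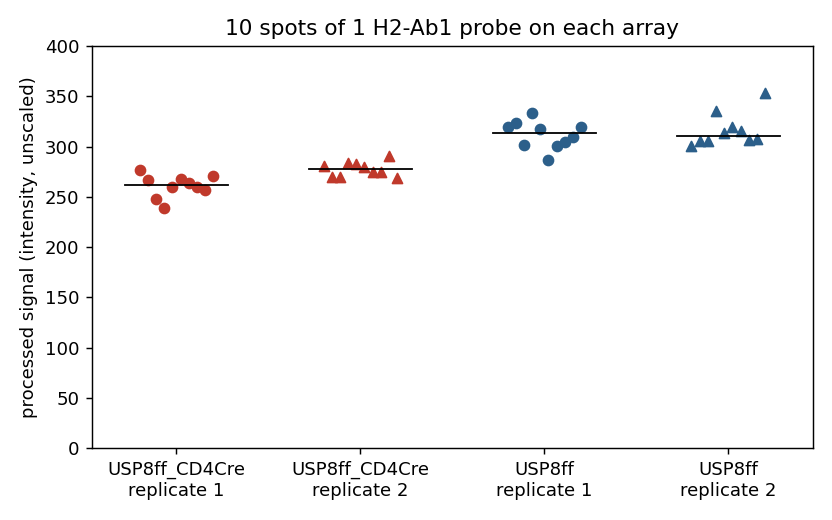
Unscaled processed signal of each of the 10 spots of 1 H2-Ab1 probe on each array, with the median as a bar. Medians were 262.0 and 277.3 on the USP8ff_CD4Cre arrays and 313.5 and 310.2 on the USP8ff arrays, before scaling between arrays.

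The 4th H2-Ab1 probe was well above background on 1 array, USP8ff_CD4Cre replicate 2, and the design gives it no place on mm9. It covers the same stretch as the dimmer probe above over 31 bases, of which 2 differ. The pair is shown because both carry the name H2-Ab1 and cover the same stretch with unlike letters; capitals mark the bases that differ within the overlap.
H2-Ab1 probe on chromosome 17: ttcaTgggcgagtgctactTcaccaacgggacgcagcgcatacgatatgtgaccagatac
H2-Ab1 probe without a position: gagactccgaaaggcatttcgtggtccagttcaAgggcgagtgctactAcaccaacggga
The log2 levels of the probe without a position were -4.11 and -4.07 in USP8ff_CD4Cre, against -4.26 and -4.36 in USP8ff, near the dimmest signals well above background.

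H2-Aa, the partner alpha chain of H2-Ab1, had 2 probes, and neither was well above background on an array. Both are shown because they are the design's readout of the A alpha chain; all letters are in lower case because no base is singled out.
H2-Aa probe, mm9 chr17:34421285-34421344, minus strand: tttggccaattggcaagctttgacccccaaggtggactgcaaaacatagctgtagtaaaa
H2-Aa probe, mm9 chr17:34420627-34420686, minus strand: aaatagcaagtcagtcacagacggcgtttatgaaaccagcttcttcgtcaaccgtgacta
The first gave intensities of 16.4 and 17.5 in USP8ff_CD4Cre, against 32.6 and 29.7 in USP8ff. The second gave 8.02 and 11.1 in USP8ff_CD4Cre, against 23.4 and 6.84 in USP8ff. The lowest signals well above background on these arrays were 32.2, 24.9, 40.4 and 32.4, in the order USP8ff_CD4Cre replicates 1 and 2 and USP8ff replicates 1 and 2. No fold is given for H2-Aa.

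Of the peptide exchange genes, H2-DMb1, the beta chain of the H2-DM exchange factor, was lower in the mutant. The log2 level of H2-DMb1 was -2.38 and -2.86 in USP8ff_CD4Cre, against -1.91 and -2.14 in USP8ff. The log2 difference was -0.59 ± 0.20 (SE), 66.4% of the control signal, and the gap between genotypes (0.23) was smaller than the 0.49 between the 2 mutant arrays. Without USP8ff_CD4Cre replicate 2 the difference was -0.35, and with normexp background correction it was -0.37. A second H2-DMb1 probe, which the design also matches to H2-DMb2, was well above background on USP8ff replicate 2 alone. Its log2 levels were -4.06 and -4.25 in USP8ff_CD4Cre, against -3.78 and -3.64 in USP8ff, so no fold is given for it.

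H2-DMa, the alpha chain of the same factor, had log2 levels of -0.68 and -0.60 in USP8ff_CD4Cre, against -0.54 and -0.78 in USP8ff. The mutant values lay between the controls, and the difference was 0.02 ± 0.13 (SE). Of the H2-DM chains, the beta chain was thus lower in both mutant pools and the alpha chain overlapped; the difference between them was not tested.

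H2-Oa, the alpha chain of the H2-DM inhibitor H2-O, had log2 levels of 1.503 and 1.31 in USP8ff_CD4Cre, against 1.76 and 1.20 in USP8ff. Its second probe gave 1.16 and 0.88 in USP8ff_CD4Cre, against 1.38 and 0.88 in USP8ff. On both probes the difference (-0.07 and -0.11) was smaller than the spread between the controls. H2-Ob, which encodes the partner beta chain, is no member; it was well above background on both USP8ff_CD4Cre arrays and 1 of the 2 USP8ff arrays, with a log2 difference of -0.27 ± 0.34 (SE; limma adjusted p = 0.87).

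For Ciita, the transactivator, no array had a signal well above background. Its probe (mm9, chromosome 16, 10526303 to 10526362) gave intensities of 7.50 and 5.70 in USP8ff_CD4Cre, against 9.53 and 7.44 in USP8ff. Its level in either genotype was not detectable at this sensitivity, and no fold is given.

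Whether Ctss and the class II genes were low together was read array by array, and the answer was mixed. With each gene centred on its mean over the 4 arrays, Ctss stood at -0.80 and -1.16 in USP8ff_CD4Cre, against 0.75 and 1.21 in USP8ff. The median of the other 6 measured members stood at -0.04 and -0.16 in USP8ff_CD4Cre, against 0.34 and 0.02 in USP8ff. In USP8ff_CD4Cre replicates 1 and 2, 4 and 5 of the 6 were below their own mean, against 0 and 2 of the 6 in USP8ff replicates 1 and 2. The log2 difference of Ctss minus the median of the other 6 (-0.26) was -1.70, and the median over all 13062 genes was 0.02.

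Within the control genotype the order was the opposite of that between genotypes. Ctss was 0.45 higher on the log2 scale in USP8ff replicate 2 than in replicate 1, while 5 of the other 6 members were lower there, by 0.23 (H2-DMb1) to 0.56 (H2-Oa). H2-Ab1, the exception, was 0.01 higher. USP8ff replicate 1 had the highest value of the 4 arrays for 5 of the 6 class II genes, and USP8ff replicate 2 the highest value of Ctss. Within USP8ff_CD4Cre, Ctss was 0.37 lower in replicate 2 and 4 of the other 6 were lower there too. With 2 arrays a genotype no correlation across arrays was computed. The same quantity was -1.27 without USP8ff replicate 2 and -2.05 without USP8ff replicate 1.

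**Figure D3:**
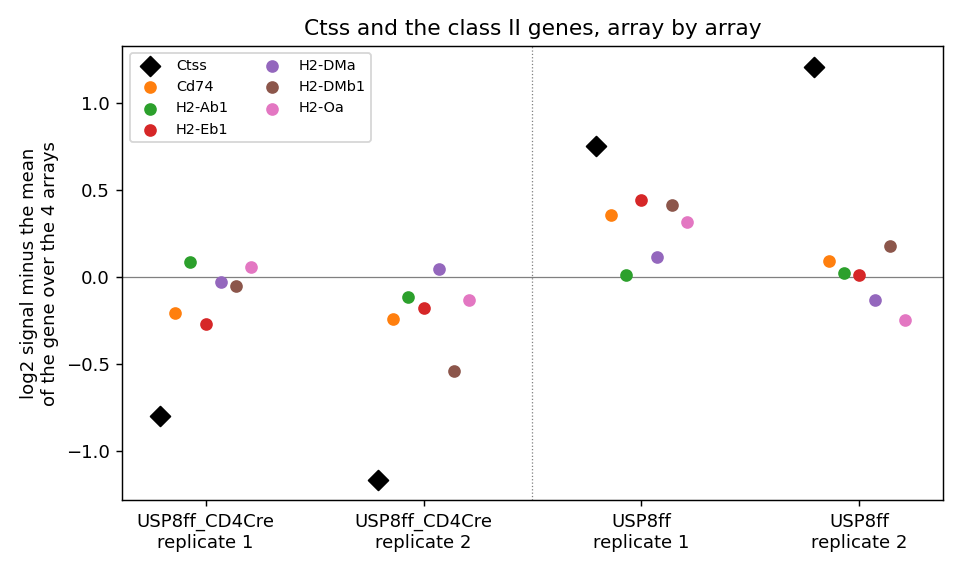
Log2 signal of Ctss and the 6 other measured members on each array, after subtracting the mean of each gene over the 4 arrays. Ctss lies farthest from 0 on every array, at -0.80, -1.16, 0.75 and 1.21 from left to right, and the class II genes spread on both sides of 0 on 3 of the 4 arrays.

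Genes were also ordered by the Euclidean distance of their centred log2 values from those of Ctss over the 4 arrays. This distance depends mostly on the size of the genotype difference, for which Ctss was chosen, so the order is a description and genes with small differences could not come near. Among 13061 genes the first 5 were the integrin gene Itgae (distance 0.12), the cytotoxic granule gene Nkg7 (0.25), the lymphocyte surface gene Cd7 (0.33), the receptor gene Gpr83 (0.33) and the cyclin gene Ccnd2 (0.36). Itgae was not well above background on either USP8ff_CD4Cre array, and Cd7 and Gpr83 were so on 1 of the 2, so their distances rest in part on signals that are only bounds. Nkg7 and Ccnd2 were well above background on all 4 arrays. The nearest members were H2-DMb1 (rank 197, distance 1.46), Cd74 (rank 471) and H2-Eb1 (rank 622). H2-Ab1, H2-Oa and H2-DMa ranked 4373, 6260 and 7442.

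**Figure D4:**
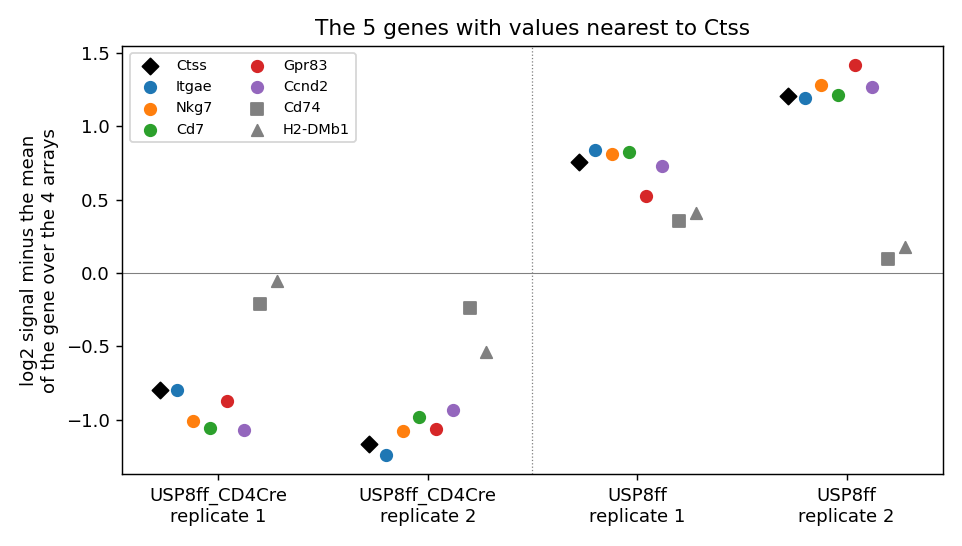
Log2 signal minus the gene's mean over the 4 arrays for Ctss, the 5 genes nearest to it, and Cd74 and H2-DMb1. Itgae has the smallest distance (0.12) but was not well above background on either USP8ff_CD4Cre array; H2-DMb1 (1.46) and Cd74 (1.61) stay nearer to 0.

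Promoter windows were set beside each other because class II genes share a promoter module, with an X box bound by the RFX complex and a Y box bound by NF-Y, through which Ciita acts. RefSeq windows (GRCm38.p6, 250 bases before to 50 after a start) were found for 6 of the 9 members: Ctss, H2-Aa, H2-Eb1, H2-DMa, H2-DMb1 and H2-Oa. Shown are 90 bases, from 100 to 11 bases before the start site, 5′ to 3′ on the strand of the gene. Capitals mark the Y box core GATTGG on either strand, the longest run of letters that the H2-Eb1 and H2-DMb1 windows share (AACTGATGATGCT, 13 bases, at the X box), and, in Ctss, a pair of GAAA with 2 bases between them, the core of the interferon response element.
Ctss, chr3:95526686-95526775, plus strand: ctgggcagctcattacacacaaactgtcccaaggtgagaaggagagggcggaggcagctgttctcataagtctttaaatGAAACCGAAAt
H2-Eb1, chr17:34305767-34305856, plus strand: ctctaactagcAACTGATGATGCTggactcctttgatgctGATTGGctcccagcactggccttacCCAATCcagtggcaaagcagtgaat
H2-DMb1, chr17:34153091-34153180, plus strand: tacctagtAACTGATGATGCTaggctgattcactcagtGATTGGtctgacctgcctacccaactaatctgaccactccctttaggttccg
H2-Aa, chr17:34287834-34287923, minus strand: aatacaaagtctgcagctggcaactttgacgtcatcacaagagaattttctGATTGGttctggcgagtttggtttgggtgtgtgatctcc
H2-Oa, chr17:34092279-34092368, plus strand: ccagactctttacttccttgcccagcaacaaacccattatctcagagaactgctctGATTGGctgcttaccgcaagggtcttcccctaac

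GATTGG began 44 to 62 bases before the start in H2-Oa, H2-Aa, H2-Eb1 and H2-DMb1. Searched on both strands, it was in 16.1% of the 32851 promoter windows of 300 bases. H2-Eb1 held a second copy on the opposite strand. H2-DMa held the letters 199 bases before 1 of its 2 annotated starts. The 13-base run was in H2-Eb1 and H2-DMb1, from which it was read, and in 1 other window of the 32851, that of Slc39a10, a zinc transporter gene. The letters GATTGG were not in the Ctss window. The spaced GAAA pair, in 3.44% of all windows, began 21 bases before the Ctss start and was in no other member's window. The Y box core occurred both in genes that were lower in the mutant (H2-Eb1, H2-DMb1) and in genes that overlapped between genotypes (H2-Oa, and H2-DMa at 1 of its starts). A match of letters is a description, not a binding site.

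Other genes of the pathway, 31 in a list that holds no member, were measured in 24 cases. In limma's fit over all genes 0 of the 24 passed in either direction. At an unadjusted p under 0.05, 1 of the 24 was lower and 0 higher, beside 452 lower and 518 higher among all 13062 genes. The median log2 difference was 0.08, with 17 positive and 7 negative, beside a median of 0.02 over all genes. The summed level of the 24 genes, in multiples of the 75th percentile, was 228.4 and 236.0 in USP8ff_CD4Cre, against 220.1 and 234.6 in USP8ff.

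Among lysosomal proteases, Ctsh, an aminopeptidase of the cathepsin family, had the largest difference of the list. Its log2 levels were -3.60 and -3.499 in USP8ff_CD4Cre, against -2.85 and -2.45 in USP8ff, so that the genotypes did not overlap. The log2 difference was -0.90 ± 0.17 (SE; limma adjusted p = 0.66). Ctsl, the protease that trims the invariant chain in thymic epithelium, had 5.87 and 5.92 in USP8ff_CD4Cre, against 5.86 and 5.895 in USP8ff, a difference of 0.02 ± 0.10 (SE). Ctse, an aspartic protease, had -0.35 ± 0.56 (SE) with control arrays far apart, at -1.09 and -2.72.

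The RFX complex, which binds the X box, was measured in all of its subunit genes. Rfx5 had a log2 difference of 0.08 ± 0.11, Rfxap of 0.14 ± 0.11 and Rfxank of -0.29 ± 0.12 (SE), and none passed. Rfxank had 1.48 and 1.28 in USP8ff_CD4Cre, against 1.65 and 1.69 in USP8ff. Irf8, a transcription factor of presenting cells and B cells, had 0.32 ± 0.20. Marchf8, a membrane ubiquitin ligase related to the one that removes class II from the surface, had 0.25 ± 0.34. The costimulatory genes Cd80, Cd86 and Cd40, and H2-Eb2, H2-DMb2 and Marchf1, were not well above background on any array.

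**Figure D5:**
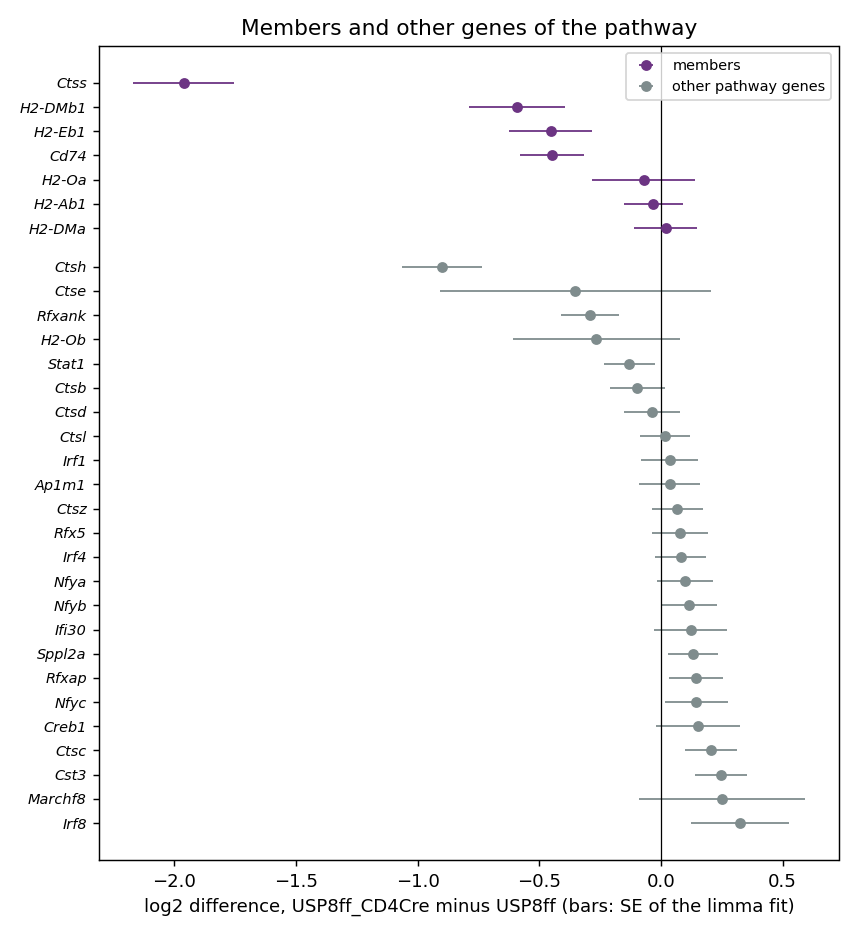
Log2 difference (USP8ff_CD4Cre minus USP8ff) of the 7 measured members and the 24 measured other genes of the pathway, with bars for the SE of the limma fit. Ctss at -1.96 and Ctsh at -0.90 lie farthest to the left; most pathway genes lie within 0.3 of 0.

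Markers of cells that do present antigen on class II were read on the same arrays. Of 10 B cell markers, 1 passed the filter (Cd79b, log2 difference -0.08 ± 0.12, SE), and 8 were well above background on no array. The summed B cell level, that of Cd79b alone, was 5.27 and 4.65 in USP8ff_CD4Cre, against 5.09 and 5.37 in USP8ff. Of 10 dendritic cell markers 9 were on the array and 1 passed (Xcr1, 0.08 ± 0.12, SE), and Itgax was well above background on USP8ff replicate 2 alone. The summed dendritic cell level, that of Xcr1 alone, ranged over 0.176 to 0.191 in USP8ff_CD4Cre, against 0.165 to 0.182 in USP8ff.

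Macrophage markers were lower along with Ctss in the mutant pools. Of 12, 5 passed the filter and 4 of the 5 had negative differences. Their summed level was 2.03 and 2.22 in USP8ff_CD4Cre, against 2.53 and 2.88 in USP8ff. Mpeg1, a pore-forming protein gene of phagocytes, had -3.39 and -3.16 in USP8ff_CD4Cre, against -2.50 and -1.87 in USP8ff, the highest value being on the array with the highest Ctss. Its log2 difference was -1.09 ± 0.23 (SE), and in limma it did not pass (adjusted p = 0.66). Lyz2 and Cd68 overlapped between genotypes, C1qb had 0.25 ± 0.14, and Csf1r was well above background on USP8ff_CD4Cre replicate 1 alone. The part of macrophages in the Ctss difference was not tested.

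Thymic epithelial markers passed in 4 of 11 cases, and Foxn1, the factor that defines this epithelium, was above background on no array. Their summed level was 2.87 and 2.67 in USP8ff_CD4Cre, against 2.82 and 3.002 in USP8ff. Epcam, an epithelial adhesion gene, had a log2 difference of -0.47 ± 0.13 and the keratin gene Krt5 of 0.22 ± 0.12 (SE), and neither passed. Of the 10 DP markers all were measured, with a summed level of 1753 and 1772 in USP8ff_CD4Cre, against 1666 and 1746 in USP8ff. The recombinase gene Rag2 (-0.33 ± 0.13, SE) and the lipid-presenting gene Cd1d1 (-0.25 ± 0.12, SE) had the largest differences of that list, and 0 of the 10 passed.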

How the data were processed

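RNA of sorted DP thymocytes was hybridised to 4 Agilent 1-colour arrays, on 1 slide, as Cy3-labelled cRNA made from 500 ng, per the labels. The deposited scanner files hold processed spot intensities from Feature Extraction 10.7.3.1, with spatial and multiplicative detrending switched on per the file headers, with probe positions on mm9. The authors' deposited table gives a p-value and an absolute fold for 78 probes. In a further table, 4 columns of per-sample values match no label and were not used.

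Signals were set as log2 against the 75th percentile of 43379 non-control spots. Outlier spots were left out and spots of a probe averaged. A probe was kept where 1 genotype or both had all their arrays well above background, and the brightest stood for its gene (13062 genes). RefSeq symbols replaced design names for 26690 probes by accession. The genotype comparison used limma 3.58.1 (R 4.3.3), without a block, with Benjamini-Hochberg adjustment over all genes, and the script was tested on simulated data. No member was tested. The labels do not say which mice a number marks, and the p-values measure the spread between pools of 2 mice.

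Members, lists and motifs were chosen with earlier results of these data known. Named were all members, Usp8, the largest differences and the preset genes of each list, and the 5 genes nearest to Ctss. Alternatives were quantile and median scaling, normexp (offset 50), other filters, the mean of probes, outlier spots kept in, a replicate block, and each array left out. The number of arrays limits the precision. Figures were drawn with matplotlib 3.10.9.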

Additional observations from a re-analysis of the deposited data

How the results depend on the processing

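With each alternative run, Ctss and the distance from Ctss to the median of the other members stayed negative. Ctss (-1.96) was -1.48 and the distance (-1.70) was -1.39 with normexp background correction, and the cause was not tested; with 1 array left out they ranged from -2.19 to -1.74 and from -2.05 to -1.27. Cd74, H2-Eb1 and H2-DMb1 also stayed negative throughout. With 1 array left out, H2-Ab1 ranged from -0.13 to 0.070, H2-DMa from -0.10 to 0.14 and H2-Oa from -0.35 to 0.21, each with both signs: 0.070 for H2-Ab1, -0.02 for H2-DMa and 0.02 for H2-Oa without USP8ff_CD4Cre replicate 2, -0.10 for H2-DMa without USP8ff replicate 2 and 0.21 for H2-Oa without USP8ff replicate 1. Limma called 0 genes, of all tested or of the pathway list, in each alternative. In the 4 fits that leave out an array the lone array is assumed to vary like the other genotype's 2, so their counts say little about stability. At an unadjusted p under 0.05, 452 genes were lower and 518 higher; median scaling gave 485 and 337, and leaving out USP8ff_CD4Cre replicate 2 gave 226 and 193. The replicate numbers are not stated to mark litters or days. Deviations from the genotype means correlated at 0.32 across genes between arrays of the same number, and a fit with the replicate block called 0 genes, with 697 lower and 641 higher at the unadjusted level. Signal over background limits H2-Aa and Ciita, whose levels were not measurable in either genotype.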

Other observations

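A pair of further class II probes, singled out after their values were seen, lay outside the set because the design gives them other names. H2-Ea, the E alpha chain gene that several common laboratory strains do not express, was well above background on no array, with log2 levels of -5.87 and -6.41 in USP8ff_CD4Cre, against -5.66 and -6.11 in USP8ff. A cDNA probe with the design name AK005018, described there as a class II antigen, was well above background on all 4 arrays. Its log2 levels were -3.36 and -3.78 in USP8ff_CD4Cre, against -3.18 and -3.43 in USP8ff, and it was not tested.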
